A study of Mus musculus with 20 samples.

Results

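The transcripts of 9 myelin genes (Mbp, Mog, Mag, Mobp, Cnp, Mal, Cldn11, Ermn and Opalin) were followed in microglia and astrocytes sorted from mouse forebrain 7 days after traumatic brain injury. They were listed by symbol, 9 of 39017 gene identifiers, chosen by their measured values in injured against sham microglia in these same data. That comparison is therefore a description here, with no test. In it 6 of the 7 members with enough reads had a higher fitted value after injury, and none passed the threshold for a change. All 9 were lower in sham microglia than in sham astrocytes.

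RNA came from adult male C57BL/6J mice, 3 to 4 months old, with no engineered allele named in the labels. Every mouse had a craniectomy over the left parietal bone. Mice of the injury group received lateral fluid percussion injury (FPI), a brief fluid pulse against the dura, and sham mice were connected to the device and released without a pulse. Microglia were gated as CD11b+ cells with intermediate CD45 and astrocytes as ACSA-2+ cells, both from the left forebrain as a whole. Each group held 5 libraries (sham microglia, FPI microglia, sham astrocytes and FPI astrocytes), each from 1 mouse without pooling, and a Percoll spin that removes myelin preceded the staining. By the animal numbers in the library names, 3 mice gave a library of each cell type. FPI astrocyte library 5 was named like a microglia library, with the number of the mouse that gave FPI astrocyte library 2. Its title was followed. The names of microglia libraries 1 to 3 carry an M in both groups, and those of libraries 4 and 5 a J-A. The labels do not say what these letters mark.

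Myelin is the stack of membrane that oligodendrocytes wrap around axons. Compact myelin is held together by proteins such as the basic proteins encoded by Mbp and Mobp. Other members sit on the inner or outer face of the sheath or anchor its cytoskeleton. Oligodendrocytes carry some myelin mRNAs, Mbp above all, out along their processes for local translation. Microglia and astrocytes are not known as myelin-forming cells, and microglia are known to clear myelin debris after injury.

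The libraries held 5623349 to 13110857 counted reads. The 9 microglia markers summed to 17456 to 26972 CPM (read counts scaled to library size, with TMM factors over the 20 libraries) in the microglia libraries and to 104 to 256 CPM in the astrocyte libraries. The 9 astrocyte markers summed to 10869 to 33734 CPM in the astrocyte libraries and to 244 to 623 CPM in the microglia libraries. In bulk libraries of this kind, fewer cells of a type and less RNA per cell cannot be told apart.

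The bases before the starts of 5 members are shown. Mag, Cnp and Mobp stood after Mbp at the largest shares of their astrocyte level in microglia. Mog and Opalin stood at the smallest. A link between these bases and the levels of the members was not tested. RefSeq on GRCm38.p6 gave a start for 8 members, and none is shown for Mbp. In the 250 bases before the most upstream start, 2 short motifs were searched on both strands: ACAAAG or ACAATG, the core bound by SOX factors such as SOX10, and CTGGCAC or CTGGTAC, the core bound by MYRF, both regulators of oligodendrocyte genes. The SOX core was present in 5 of 8 windows and in 25.2% of all 32851 RefSeq windows of the same length. The MYRF core was present in 3 of 8 windows and in 5.93% of all windows. The windows of Mal and Cldn11 held neither. Matches are in capitals, 5′ to 3′ on the gene's strand, and bases inside annotated exons are left out. The stretches are Mag chr7:30914923-30915172 (minus strand), Cnp chr11:100574689-100574903 (plus strand), Mobp chr9:120149492-120149706 (plus strand), Mog chr17:37023399-37023648 (minus strand) and Opalin chr19:41077114-41077363 (minus strand).
Mag: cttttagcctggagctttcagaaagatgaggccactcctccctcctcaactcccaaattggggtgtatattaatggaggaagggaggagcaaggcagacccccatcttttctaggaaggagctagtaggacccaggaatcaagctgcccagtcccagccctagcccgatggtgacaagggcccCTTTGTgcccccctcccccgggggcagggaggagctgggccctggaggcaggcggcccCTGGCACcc
Cnp: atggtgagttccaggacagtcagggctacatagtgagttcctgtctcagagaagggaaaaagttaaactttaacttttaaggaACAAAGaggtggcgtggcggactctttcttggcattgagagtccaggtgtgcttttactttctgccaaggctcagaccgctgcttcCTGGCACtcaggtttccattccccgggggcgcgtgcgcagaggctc
Mobp: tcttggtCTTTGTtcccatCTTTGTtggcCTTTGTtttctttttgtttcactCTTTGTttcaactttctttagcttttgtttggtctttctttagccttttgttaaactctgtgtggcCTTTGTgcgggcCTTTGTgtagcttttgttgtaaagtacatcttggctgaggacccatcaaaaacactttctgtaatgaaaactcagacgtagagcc
Mog: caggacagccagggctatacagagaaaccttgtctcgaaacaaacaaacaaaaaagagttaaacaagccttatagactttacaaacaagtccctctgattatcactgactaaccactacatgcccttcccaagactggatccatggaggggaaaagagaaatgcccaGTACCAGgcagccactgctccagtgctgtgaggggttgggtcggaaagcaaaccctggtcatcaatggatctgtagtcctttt
Opalin: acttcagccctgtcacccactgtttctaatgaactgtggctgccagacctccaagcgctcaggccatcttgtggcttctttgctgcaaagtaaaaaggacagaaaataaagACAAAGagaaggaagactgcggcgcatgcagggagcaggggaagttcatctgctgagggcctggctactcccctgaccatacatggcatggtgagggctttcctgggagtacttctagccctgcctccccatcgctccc
The Mobp stretch held 6 SOX cores, all on the opposite strand, and Mag and Cnp each held 1 core of each kind. A match is a description of letters and says nothing of binding in these cells.

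The members lie on 8 chromosomes of GRCm38. All are protein-coding genes: Mbp at chr18:82475146-82585637, Mog at chr17:37010743-37023398, Mag at chr7:30899176-30914873, Mobp at chr9:120149707-120181484, Cnp at chr11:100574904-100591729, Mal at chr2:127633226-127656695, Cldn11 at chr3:31149920-31164324, Ermn at chr2:58045113-58052864 and Opalin at chr19:41061710-41077113. Some counts are less certain than others, since the sources do not say whether reads were counted by strand. Cnp shares 154 exon bases with Dnajc7 on the opposite strand, a chaperone gene with 12571 reads over the 10 microglia libraries. Ermn shares 237 exon bases with Galnt5 on the opposite strand, which had 0 reads in the microglia libraries and 20 in the astrocyte libraries. Mobp shares 79 exon bases with the noncoding transcript Gm38642 on its own strand.

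The first comparison asked how much of each myelin transcript the 2 sorted cell types held without injury. Every member had lower values in sham microglia than in sham astrocytes. The 7 members that passed the filter on low counts in microglia too had log2 fold changes of -3.89 (Mbp) to -7.43 (Ermn) and were called at adjusted p-values of 4.1e-09 to 5.2e-07 (edgeR quasi-likelihood test with Benjamini-Hochberg adjustment over 15077 genes, 5 libraries a group, in a fit of all 20 libraries). Called means an adjusted p below 0.1 and a log2 fold change beyond 0.6. DESeq2 also called these 7. Of all genes tested, 35.6% were called lower in microglia, 25.3% higher and 60.9% in either direction. The groups did not overlap for any of the 9, nor for 52.1% of all genes tested, 29.1% with the lower values in microglia. Mog and Opalin passed the filter through the astrocyte libraries alone, where they are high, and their log2 fold changes of -7.65 and -8.41 are a description. The median log2 fold change over all genes tested was -0.15. The sham microglia libraries also belong to the comparison that chose the members, so the test does not wholly stand apart from that choice.

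Mbp encodes myelin basic protein, which binds the cytoplasmic faces of compact myelin together. It stood at 79.1, 61.05, 32.3, 41.5 and 66.5 CPM in sham microglia libraries 1 to 5. FPI microglia had 80.3, 71.9, 70.2, 69.6 and 40.9 CPM. Sham astrocytes had 800.4, 363, 159, 1761 and 1079.7 CPM, and FPI astrocytes 1302, 1019, 743, 1281 and 469 CPM. The microglia groups overlapped, with 4 FPI libraries above 4 of the 5 sham libraries. The astrocyte groups overlapped too, and every microglia library lay below every astrocyte library. The mean of sham microglia was 6.74% of the mean of sham astrocytes, the highest share among the members.

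Cnp encodes the cyclic nucleotide phosphodiesterase that keeps cytoplasmic channels open within myelin. Sham microglia libraries 1 to 5 held 38.2, 43.8, 38.1, 44.0 and 44.9 CPM, and FPI microglia 37.5, 55.7, 36.7, 49.9 and 55.2 CPM. The 3 FPI libraries 2, 4 and 5 lay above all sham libraries, and the other 2 lay below them. Astrocytes held 1035, 441, 329, 1798 and 705 CPM in the sham group and 1082, 982, 640.3, 1151 and 421 CPM in the FPI group, so that Cnp in sham microglia was 4.85% of the sham astrocyte mean. Its spread among sham microglia was the narrowest of the members, with the highest library 1.18 times the lowest.

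Mag encodes a sialic acid-binding adhesion molecule on the inner, axon-facing membrane. It measured 14.0, 15.3, 24.3, 27.2 and 18.6 CPM in sham microglia and 14.2, 18.5, 14.9, 24.2 and 14.9 CPM in FPI microglia, with the highest value in a sham library. The astrocyte values were 564, 227, 101, 1765 and 764 CPM (sham) and 787, 816, 422, 1168 and 221 CPM (FPI). Its sham microglia mean was 2.91% of the sham astrocyte mean.

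Mobp encodes a small basic protein of compact myelin. It measured 15.1, 16.7, 8.96, 10.3 and 11.6 CPM in sham microglia, and 19.1, 24.8, 21.4, 19.3 and 9.09 CPM in FPI microglia, where 4 of 5 libraries lay above all sham libraries. The fifth, FPI library 5, lay among the lowest. In astrocytes it ran from 103 to 967 CPM (median 478) in sham and from 217 to 697 CPM (median 548) in FPI libraries.

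The other 5 members were scarce in microglia, each at less than 1% of the sham astrocyte mean. Mal, a proteolipid of membrane rafts, measured 0, 4.10, 4.03, 8.74 and 5.68 CPM in sham microglia and 3.74, 20.6, 5.06, 10.01 and 4.74 CPM in FPI microglia. Cldn11, the claudin of myelin tight junctions, measured 1.00, 1.17, 1.34, 2.95 and 3.03 CPM in sham microglia and 4.55, 11.4, 2.89, 4.47 and 2.95 CPM in FPI microglia. For both genes FPI microglia library 2 was the highest by a wide margin, and the groups overlapped. Ermn, an actin-binding protein of the outer cytoplasmic lip, measured 0, 3.66, 1.68, 2.16 and 0.19 CPM in sham microglia and 0, 4.49, 4.22, 3.70 and 3.71 CPM in FPI microglia. Its 4 detected FPI libraries lay above all sham libraries, by a small margin, and the fifth was at 0.

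Mog, the immunoglobulin-like protein of the outermost myelin surface, gave 29 reads over the 5 sham microglia libraries and 42 over the 5 FPI libraries. Opalin, a membrane glycoprotein of oligodendrocytes, gave 8 and 20 reads. All 20 Opalin reads of FPI microglia fell in library 3. The other 4 FPI libraries had 0, which allows up to 0.36 to 0.44 CPM at their depths, counting error only. In the astrocyte libraries the same 2 genes had 199 to 3439 reads (Mog) and 109 to 1675 reads (Opalin) a library. Astrocyte means of the 5 scarce members ranged from 57.0 CPM (Opalin, FPI) to 756 CPM (Mal, sham).

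**Figure D1:**
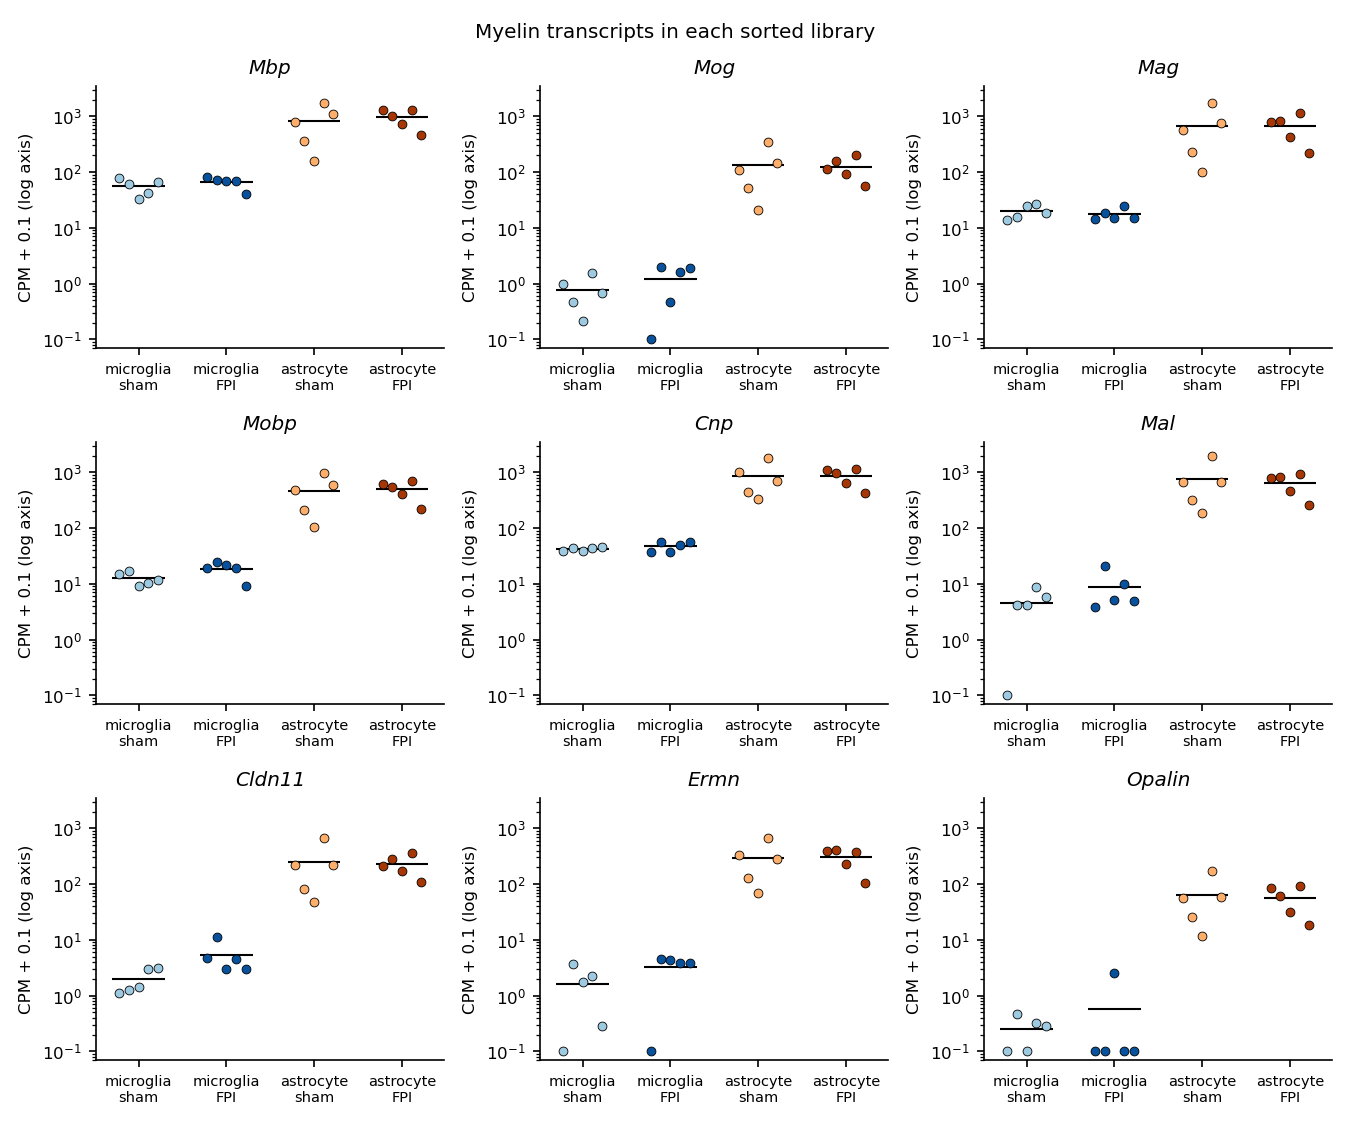
Level of each of the 9 members in every library, as CPM + 0.1 on a log axis, by cell type and condition; points are libraries in replicate order from left to right, lines are means of 5. All microglia points lie below all astrocyte points in each panel, and sham and FPI points overlap within each cell type.

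Scaled by exon length, the order of the members differed between the cell types. In sham astrocytes the level per kilobase of exon was highest for Mal (272 ± 248 CPM per kilobase, SD, n = 5) and Cnp (237 ± 162), followed by Mag (168 ± 162), Cldn11 (132 ± 132), Mbp (98.3 ± 74.7), Ermn (81.5 ± 64.4), Mog (79.5 ± 76.6), Mobp (68.7 ± 49.7) and Opalin (21.9 ± 21.5). No neighbours in that order differed by more than the SDs of both. In sham microglia the order was Cnp (11.5 ± 0.92 CPM per kilobase), Mbp (6.62 ± 2.24), Mag (4.88 ± 1.41), Mobp (1.83 ± 0.48), Mal (1.62 ± 1.14), Cldn11 (1.02 ± 0.54), Ermn (0.42 ± 0.41), Mog (0.40 ± 0.31) and Opalin (0.05 ± 0.05). There the steps from Cnp to Mbp, from Mag to Mobp, from Cldn11 to Ermn and from Mog to Opalin exceeded the SDs of both genes, and the other 4 steps did not. The Mbp level per kilobase is a low estimate, because its 8469 exon bases include those of longer transcripts from the same locus.

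The make-up of the myelin reads differed accordingly. Mbp took 39.6% ± 8.58 (SD, n = 10) of the reads on the 9 members in microglia libraries and 20.8% ± 3.16 in astrocyte libraries. Cnp took 29.4% ± 5.52 and 21.4% ± 4.61. Mal took 4.09% ± 2.64 in microglia and 15.9% ± 1.67 in astrocytes, and Ermn 1.53% ± 1.11 and 6.85% ± 0.80. The ranges of Mbp, Mal, Ermn and Mog did not overlap between the cell types. Within microglia the mean share of Mbp was 39.6% in both sham and FPI libraries.

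**Figure D2:**
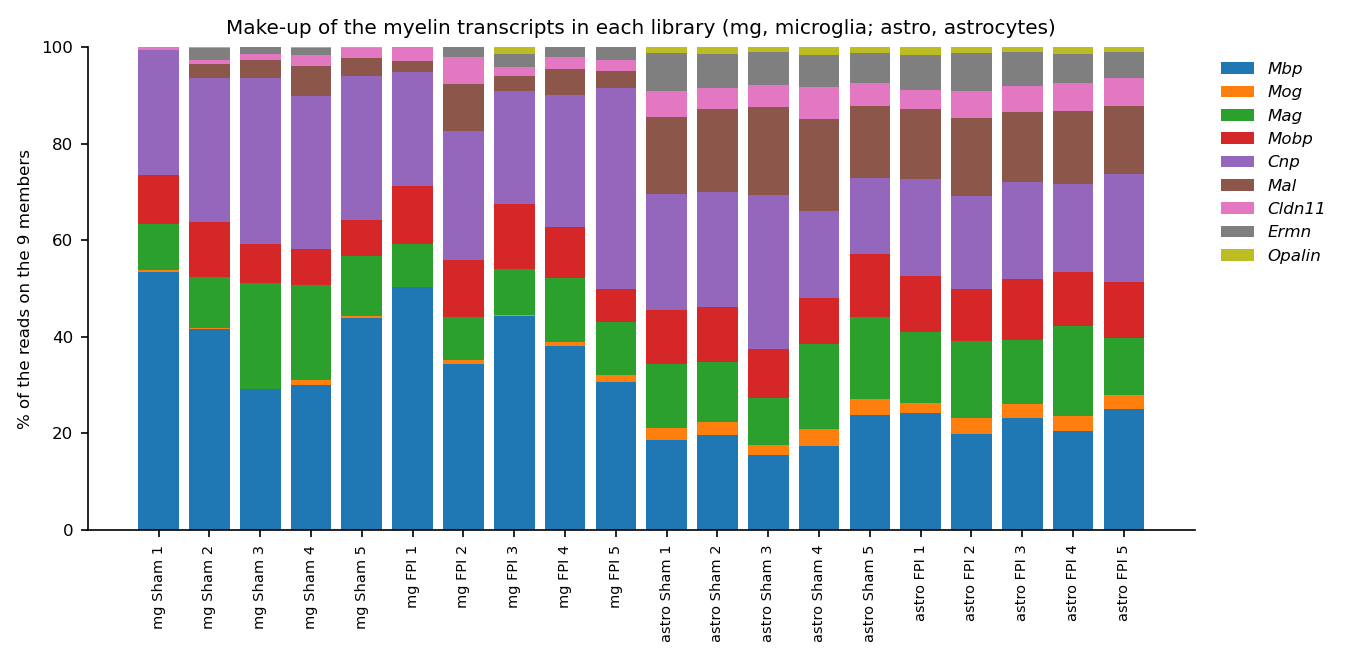
Share of each member among the reads on all 9 members, in percent, for each of the 20 libraries. Mbp and Cnp fill most of the microglia bars, and Mal and Ermn take larger shares of the astrocyte bars.

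The share of the astrocyte level that microglia held was also computed for other gene groups. Among the 9 members it ran from 0.24% (Opalin) to 6.74% (Mbp) in sham mice, with a median of 0.77%. The 9 astrocyte markers ran from 0.43% (Fgfr3) to 4.08% (Slc1a3), also with a median of 0.77%. The 24 other myelin membrane genes ran from 0% to 89.9% (Trf), with a median of 0.74%, and Sirt2 (58.8%) and Tppp (32.5%) came next below Trf. The 8 lipid enzymes ran from 0.28% (Fa2h) to 30.9% (Gamt), with a median of 1.26%. Mbp, Cnp, Mag and Mobp thus lay above the median of the astrocyte markers while Cldn11 lay at that median and the other 4 members below it. After FPI the share was larger for 8 of 9 members, Mag being the exception (2.54%). The FPI microglia values in it helped choose the members, so this count is a description. The share was also larger for all 9 astrocyte markers, whose median became 1.52% against 2.32% for the members. It was larger for 16 of the 24 other myelin membrane genes, 6 of 8 lipid enzymes and 6 of 8 oligodendrocyte transcription factors. The part of astrocyte RNA in the member values was not tested.

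**Figure D3:**
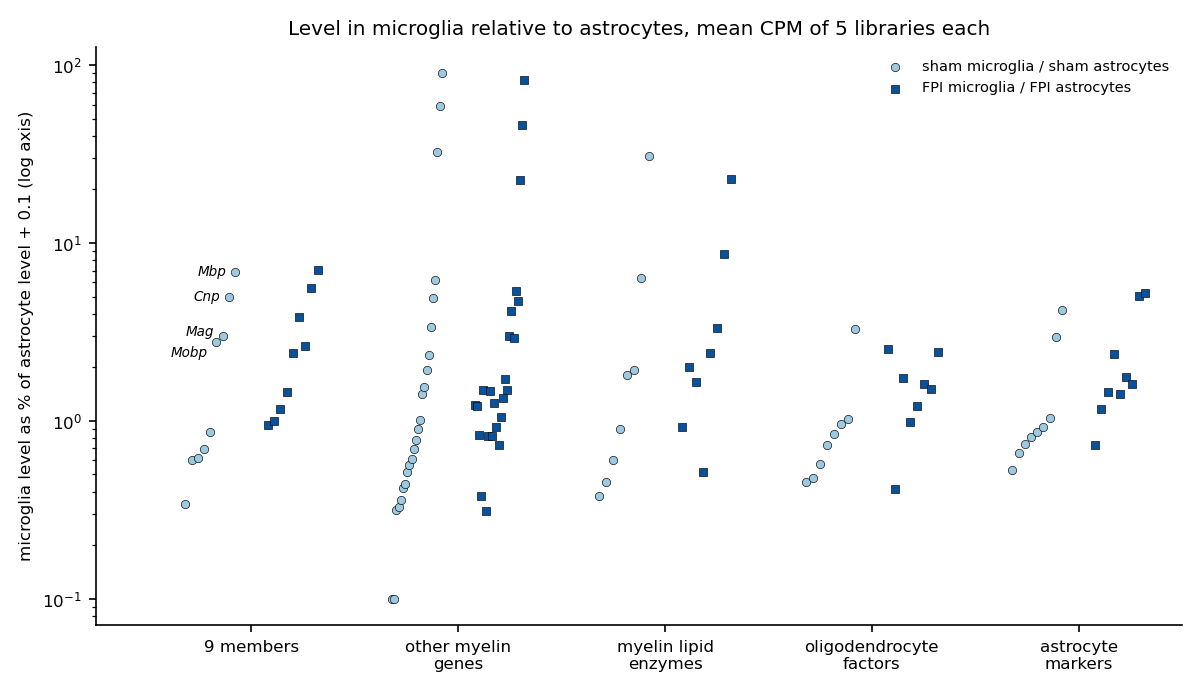
Mean CPM in microglia as a percent of the mean CPM in astrocytes of the same condition, plus 0.1, on a log axis; each point is a gene, circles are sham and squares FPI, 5 libraries a group. Mbp, Cnp, Mag and Mobp lie between 2.66% and 6.74% in sham mice, above the other 5 members.

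The second comparison asked whether FPI changed the myelin transcripts in microglia. These are the values that led to the choice of the members. The summed level of the 9 was 148, 146, 111, 139 and 151 CPM in sham microglia and 159, 209, 158, 183 and 133 CPM in FPI microglia. In all, 4 FPI libraries lay above all sham libraries and FPI library 5 lay below 4 of them. Over members, the log2 fold change was 0.26 for Mbp (SE 0.22), -0.18 for Mag (SE 0.23), 0.59 for Mobp (SE 0.26), 0.19 for Cnp (SE 0.16), 0.98 for Mal (SE 0.64), 1.49 for Cldn11 (SE 0.56) and 1.05 for Ermn (SE 0.91), 5 libraries a group. Mog and Opalin did not pass the filter on low counts and were not fitted.

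None of the 7 fitted members was called by edgeR, which called 2.35% of all 12143 genes tested (2.13% higher and 0.214% lower after FPI), and no member was called by DESeq2. These counts are given as a description, since the same values chose the members. The groups overlapped for each of the 9, while 3.43% of all genes tested had groups that did not overlap. Without FPI microglia library 2 the log2 fold change of Mal was 0.41 and that of Cldn11 1.00. That library also had the highest sum of astrocyte markers among the microglia libraries (623 CPM), Gja1 at 35.2 CPM and Gfap at 99.5 CPM. FPI library 1 came next with a sum of 600 CPM, and held Mal at 3.74 CPM and Cldn11 at 4.55 CPM. The part of astrocyte RNA in these member values was not tested.

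Genes related to the members were read from lists drawn up with earlier results known. Of the 24 other myelin membrane genes reported here, 14 could be tested in microglia and none was called by edgeR. An unadjusted p below 0.05 was found for 2 of the 14, in opposite directions. DESeq2 called 1 of them, Gsn, the actin-severing gelsolin, which had a log2 fold change of 1.05 in edgeR (SE 0.34, adjusted p = 0.14). For Apod, a lipocalin, the log2 fold change was 0.31 (SE 0.46). For Enpp2, the enzyme autotaxin, it was 0.05 (SE 0.47).

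Of 8 enzymes of myelin lipids and metabolism, 4 could be tested and 1 was called, Car2, which rose from 1.47 ± 0.79 to 8.17 ± 4.82 CPM (SD, n = 5 each, log2 fold change 2.47, SE 0.56, adjusted p = 0.020 in edgeR). Without FPI microglia library 2 its adjusted p was 0.13 (edgeR). Of 8 transcription factors of the oligodendrocyte lineage, 2 could be tested and none was called by edgeR. Myrf, the factor that switches on myelin genes, had 1.72 ± 1.44 CPM in sham and 5.98 ± 4.01 CPM in FPI microglia, at an adjusted p of 0.18 in edgeR (0.0082 unadjusted). DESeq2 called Myrf and no other factor. Sox10 had 1.40 ± 1.58 and 2.59 ± 1.89 CPM. The median log2 fold change was 0.27 over the other myelin membrane genes that could be tested and -0.01 over all genes.

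Markers of other cells were read in the same libraries. Of the 9 astrocyte markers, 9 had a higher fitted level in FPI microglia, 1 was called (Gfap, log2 fold change 2.78, SE 0.55, adjusted p = 0.0077 in edgeR) and 5 had an unadjusted p below 0.05, as 11.3% of all genes did. Their summed level was 244 to 372 CPM in sham and 296 to 623 CPM in FPI microglia. In the astrocyte libraries Gfap itself had a log2 fold change of 1.98 after FPI (SE 0.34, adjusted p = 0.15 in edgeR). DESeq2 called it there. How far the Gfap value in microglia reflects that change was not tested. None of the 3 neuron markers that could be tested was called by edgeR or DESeq2, or had an unadjusted p below 0.05. Of the 9 microglia markers none was called by either tool, and 5 had an unadjusted p below 0.05, all lower in FPI. Of 7 endothelial genes and 7 border macrophage and monocyte genes tested, none was called by either tool, and 1 in each list was lower at an unadjusted p below 0.05. Of 12 genes of oligodendrocyte precursors and newly committed cells, 4 could be tested and 1 was called, Cspg4, which rose by 2.29 on the log2 scale (SE 0.55, adjusted p = 0.035 in edgeR). The call was lost without sham library 2 (adjusted p = 0.11) and without FPI library 1 (adjusted p = 0.15). Pdgfra, the receptor that defines precursors, had a log2 fold change of -1.66 (adjusted p = 0.38, edgeR). The part of these cells in the member values was not tested.

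Genes of lipid and debris handling, a list of 18 drawn up with earlier results known, were read beside them. By edgeR 7 were called higher in FPI microglia and none lower, against 2.13% and 0.214% of all genes tested. DESeq2 called 8, the same 7 and Lgals3. In edgeR 16 had a higher fitted value and 2 a lower one, among them Cd36 (log2 fold change -0.86, SE 0.75). Of the 4 most abundant per kilobase, Apoe was called and Mertk, Lrp1 and Abca1 were not. Gpnmb, a lysosomal glycoprotein, had a log2 fold change of 5.84 (SE 0.69), Spp1, osteopontin, 3.46 (SE 0.65) and Apoe, the lipid carrier, 2.60 (SE 0.45). Axl (2.48, SE 0.22), Lpl (3.22, SE 0.37), Abcg1 (0.68, SE 0.14) and Plin2 (1.05, SE 0.28) were the others called by edgeR. All but Abcg1 and Plin2 stayed called when any 1 library was left out. Abcg1 was not called without FPI library 5 (log2 fold change 0.58), and Plin2 was not called without sham library 1, 2 or 5 or FPI library 1 or 2. When all 20 libraries were fitted together, Abcg1 (adjusted p = 0.64), Plin2 (adjusted p = 0.15) and the precursor gene Cspg4 (adjusted p = 0.20) were not called by edgeR. The summed level of the list was 6984 to 8012 CPM in sham and 9051 to 22881 CPM in FPI microglia. These groups did not overlap, whereas the groups of the summed members did. The most abundant gene of the list was Apoe, at 2864 CPM per kilobase over the 20 libraries, against 133 for Mertk, the next. Its part in the sum was not separated. Over the 10 microglia libraries the sum of the list followed that of the members at r = 0.51 (Spearman rho 0.48). In the same libraries r was 0.83 for the sum of the lipid enzymes and 0.58 for the oligodendrocyte transcription factors. It was 0.48 for the astrocyte markers, 0.35 for the other myelin membrane genes and -0.48 for the microglia markers. All these sums share a library's depth and condition, so the values are descriptions.

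**Figure D4:**
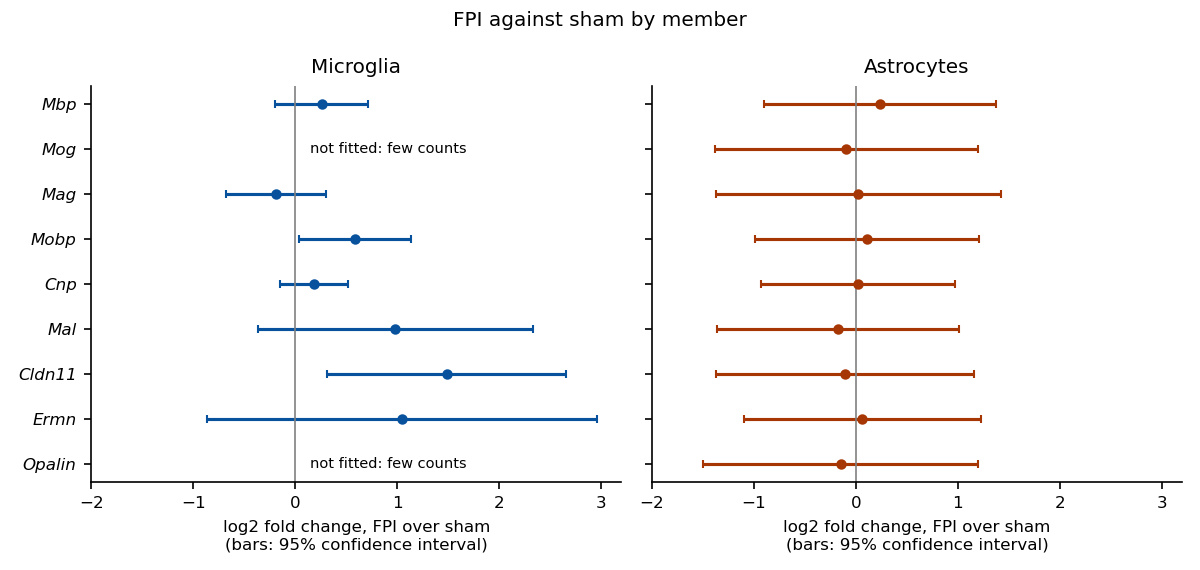
Log2 fold change of FPI over sham for each member in microglia and in astrocytes, with 95% confidence intervals from edgeR, 5 libraries a group; Mog and Opalin had too few counts to be fitted in microglia. The microglia values chose the members and are a description, and in astrocytes all 9 intervals span 0.

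The third comparison, which the choice of members did not use, asked whether FPI changed the myelin transcripts in the astrocyte libraries. None of the 9 members was called by edgeR, none had an unadjusted p below 0.05, and none was called by DESeq2. Of all 13741 genes tested, 0.00728% (1 gene) were called and 2.32% had an unadjusted p below 0.05. The log2 fold changes ran from -0.18 (Mal) to 0.24 (Mbp), with a median of 0.02 over the members and -0.01 over all genes. The 95% intervals were wide, from -1.37 to 1.42 for Mag and from -0.93 to 0.97 for Cnp, and every interval held all log2 fold changes from -0.90 to 0.97. The groups overlapped for each of the 9, and 0.713% of all genes tested had groups that did not overlap.

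The astrocyte libraries of 1 group differed widely. The summed members stood at 4284, 1847, 1026, 10071 and 4512 CPM in sham astrocyte libraries 1 to 5 and at 5381, 5098, 3206, 6273 and 1879 CPM in FPI astrocyte libraries 1 to 5. Sham library 4 was the highest for each of the 9 members and sham library 3 the lowest, so that both extremes lay in the sham group. The highest astrocyte library exceeded the lowest 5.47-fold for Cnp and 17.5-fold for Mag. Without sham library 4 the log2 fold changes ran from 0.47 (Cnp) to 0.75 (Mag), and without sham library 3 from -0.45 (Mal) to -0.053 (Mbp). None of the members was called in either fit.

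The members varied together across astrocyte libraries. The Pearson correlation of log2 CPM between 2 members had a median of 0.97 (0.92 to 0.99) over the 36 pairs and the 10 astrocyte libraries. Over the 10 microglia libraries the median was 0.23 (-0.53 to 0.82). The points share a library's depth and its mixture of cells, so these values are descriptions. In microglia, r with the mean of the other members was highest for Mal (0.73) and lowest for Mbp (-0.03).

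The other myelin genes followed the members in astrocytes. Over the 10 astrocyte libraries the summed members correlated with the sum of 24 other myelin membrane genes at r = 0.995 (Spearman rho 0.99), with 8 oligodendrocyte transcription factors at r = 0.99 and with 8 lipid enzymes at r = 0.97. The sum of 9 astrocyte markers gave r = -0.44. That of the precursor genes gave r = -0.19, without 1 of the 12 listed symbols, which matched no identifier. Sham library 4, with the most myelin transcripts, had the lowest sum of astrocyte markers (10869 CPM), whereas FPI library 5 had few myelin transcripts and 16438 CPM of astrocyte markers. In both groups the astrocyte marker sum was lower in libraries 4 and 5 (10869 to 16870 CPM) than in libraries 1 to 3 (21332 to 33734 CPM). The r of -0.44 was taken across this split, whose source was not tested. In sham library 4 the 9 members took 0.97% of all counted reads, against 0.11% in sham library 3. The sum of neuron markers lay between 36.9 and 132 CPM in these libraries, and the part of any of these cells in the member values was not tested.

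**Figure D5:**
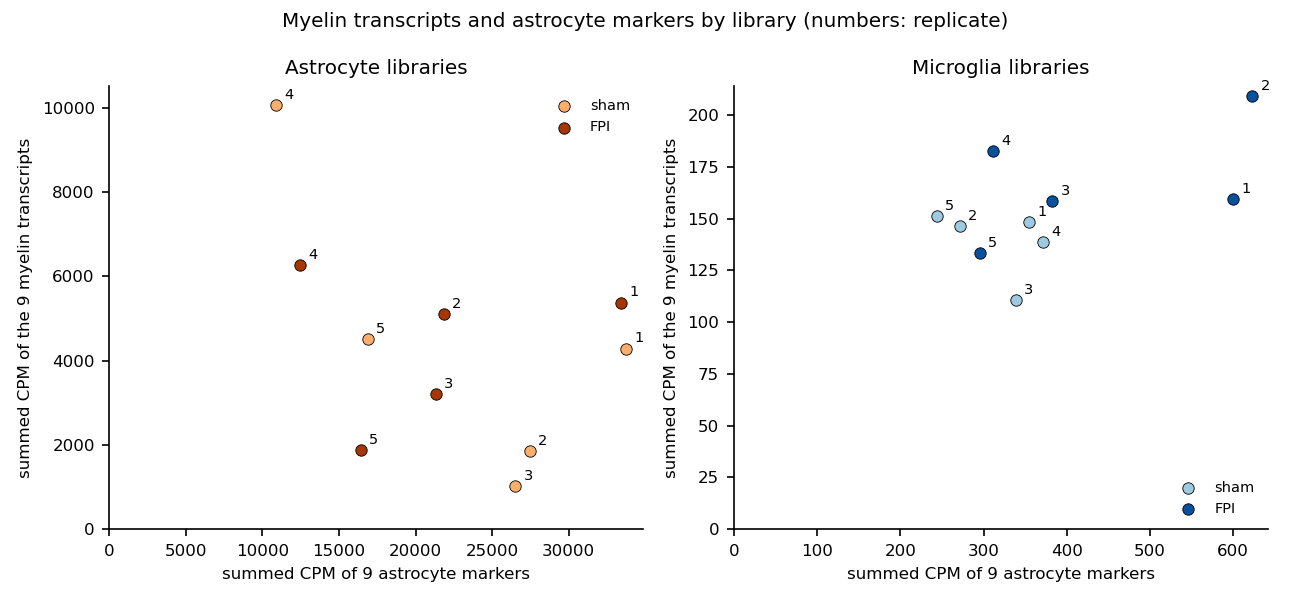
Summed CPM of the 9 members against summed CPM of 9 astrocyte markers in each library, on linear axes from 0, astrocyte libraries left and microglia libraries right; numbers are replicates. Sham astrocyte library 4 is highest on the vertical axis and lowest on the horizontal axis, and FPI microglia libraries 1 and 2 lie farthest right in the second panel.

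The related myelin genes gave no call for FPI in astrocytes. Of 24 other myelin membrane genes, 8 lipid enzymes and 8 transcription factors, none was called by edgeR or DESeq2 and none had an unadjusted p below 0.05. Car2 had a log2 fold change of 0.07 (SE 0.35), Sox10 0.31 (SE 0.55) and Myrf 0.02 (SE 0.64). Of 12 precursor genes 9 could be tested, none was called by edgeR, and 5 had an unadjusted p below 0.05, all with higher fitted values after FPI. DESeq2 called 1 gene of that list, Neu4. Gpr17, a receptor of newly committed oligodendrocytes, had 2.98 ± 1.71 CPM in sham and 51.6 ± 84.4 CPM in FPI astrocytes. Pdgfra had 14.0 ± 8.53 and 38.2 ± 33.9 CPM. Of the 9 microglia markers 7 could be tested in the same libraries, none was called by edgeR, and 4 had an unadjusted p below 0.05, all with higher fitted values after FPI. DESeq2 called 3 of them, Csf1r, Cx3cr1 and Itgam. Their summed level was 104 to 181 CPM in sham and 123 to 256 CPM in FPI astrocytes, and its part in these values was not tested.

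In the comparison of sham cell types, 23 of 24 other myelin membrane genes, 8 of 8 lipid enzymes and 8 of 8 transcription factors were called lower in microglia (edgeR). Of all genes tested, 35.6% were called lower there. Only 14, 4 and 2 of the 3 lists passed the filter on low counts in the microglia libraries alone. The others passed it through the astrocyte libraries, where they are high, so their calls are a description. Trf, the transferrin gene, was the exception (log2 fold change -0.15, adjusted p = 0.78). The log2 fold change was -4.38 for Enpp2, -4.91 for Apod and -5.45 for Gsn. Among the enzymes and factors, Fa2h, Ugt8a and Olig1 stood at 137, 190.1 and 137 CPM in sham astrocytes and at 0.38, 0.96 and 0.86 CPM in sham microglia.

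Outside the members, among the genes whose log2 CPM followed the mean of the members most closely over all 20 libraries were Ppp1r16b (r = 0.996), Tubb4a (0.995), Gnai1 (0.994), Hcn2 (0.993) and Nkain1 (0.992), of 15068 compared. The 20 libraries include the step between the cell types. Over the 10 astrocyte libraries, a set added after the values were seen, Cntn2, Tmem63a, Adssl1, Kcna1 and Dixdc1 came first (0.997 to 0.994). Over the 10 microglia libraries Rbm3, Gm3362, Zfp868, AF251705, Ppp1r16b and Eid1 came first (0.94 to 0.91). Ppp1r16b was named over the 20 libraries and over the microglia libraries.

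The 3 mice that gave both cell types are listed by their summed members. The mouse of sham astrocyte library 4, the highest of all, gave sham microglia library 2 with 146 CPM over the 9 members. The other sham mouse had 4512 CPM in astrocytes and 111 CPM in microglia. The FPI mouse had 3206 CPM in astrocytes and 159 CPM in microglia. With 3 mice this is a description.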

How the data were processed

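The authors sequenced stranded total RNA of the 20 sorted libraries and aligned reads to mm10 (GRCm38.p6) with HISAT2 2.1.0, per the labels. The deposited values are counts of reads per gene from featureCounts, raw and unnormalized, for 39017 Ensembl identifiers, and the strand setting is not given in the sources used here. The combined table held the same counts as the per-library files. Groups came from the sample titles. The members and gene lists were chosen with earlier results of these data known. Of the identifiers, 37693 were matched to GENCODE M21.

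For injury, a separate edgeR 4.0.16 model (R 4.3.3) was run per cell type: filterByExpr defaults, TMM scaling, then quasi-likelihood testing. The cell types were compared within a fit over all 20 libraries. The 3 mice with both cell types were taken as independent there. Benjamini-Hochberg adjustment was used, with the study's thresholds (adjusted p below 0.1, absolute log2 fold change above 0.6). Levels are CPM on TMM-scaled library sizes, and correlations used log2(CPM + 0.5). The genes named were drawn from the members, the 4 most abundant per kilobase of each related list, each called gene of the myelin lists and the 6 most similar genes. Of the related lists, 2 genes are not reported here. Other genes in the text were chosen after their values were seen. Alternatives were DESeq2 1.42.0, RLE factors, other filters, a replicate block and leaving out libraries. The fits were tested on simulated data with known changes. At an absolute log2 fold change of 1, 42 of 99 changed genes were recovered in astrocytes, 60 of 98 in microglia and 35 of 98 between sham cell types. At 2 the counts were 77 of 97, 81 of 91 and 64 of 94. Unchanged genes called numbered 8, 14 and 10. Libraries were taken as separate mice, although the names of FPI astrocyte libraries 2 and 5 share an animal number, and p-values measure the spread between libraries.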

Additional observations from a re-analysis of the deposited data

Results flagged for a closer look

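With 9 members and their sum in 4 groups, 40 groups of 5 libraries were screened for a library far from the other 4. Chance alone marks about 1 in 20 independent groups, and 6 were marked. These groups share libraries, the members vary together and the sum repeats them, so the 6 marks cannot be set against that rate. Sham astrocyte library 4 stood apart for Mal, at 1925 CPM against 186 to 681 CPM in the others, and for Cldn11, at 664 CPM against 47.3 to 224 CPM. FPI microglia library 2 stood apart for Cldn11, at 11.4 CPM against 2.89 to 4.55 CPM. FPI microglia library 5 was low for Mbp, at 40.9 CPM against 69.6 to 80.3 CPM. FPI microglia library 1 was at 0 CPM for Ermn, against 3.70 to 4.49 CPM. FPI microglia library 3 was the single FPI microglia library with Opalin reads, at 2.41 CPM against 0 CPM.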

How the results depend on the processing

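No member was called for FPI in astrocytes or microglia in any alternative run. In microglia the 7 fitted members kept their sign in every refit that held them. That is a description, since those values chose the members and the refits share libraries. In astrocytes the members' values lay near 0. Counting each member in each refit, 12 values changed sign under another setting and 60 did not. With 1 library left out, 30 changed sign and 60 did not. With the replicate block the log2 fold changes were 0.34 for Mog, 0.14 for Mal, 0.33 for Cldn11 and 0.18 for Opalin, and with a term for astrocyte replicates 4 and 5, chosen after seeing the data, 0.28, 0.090, 0.22 and 0.17. Testing every gene with at least 1 count gave -0.0089 for Mag and -0.018 for Cnp, and fitting all 20 libraries together -0.0023 and -0.0099. Leaving out 1 library in turn gave ranges of -0.053 to 0.71 for Mbp, -0.39 to 0.65 for Mog, -0.28 to 0.75 for Mag, -0.17 to 0.55 for Mobp, -0.21 to 0.47 for Cnp, -0.45 to 0.53 for Mal, -0.39 to 0.68 for Cldn11, -0.22 to 0.60 for Ermn and -0.45 to 0.62 for Opalin. The cause was not tested. In the comparison of sham cell types the log2 fold changes kept their sign and call in every refit, except that a filter of 10 counts in every library left 4 members to test, all called.

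Over all genes, 1 was called in astrocytes, against 39 with DESeq2, 9 testing every gene with a count, 0 with 10 counts in every library, 11 with the replicate block, 53 with all 20 libraries, 0 with FPI libraries 2 and 5 summed, 6 with the added term, and 0 to 3 leaving out 1 library. In microglia 285 were called, against 121 with all 20 libraries and 177 to 423 leaving out 1 library, lowest without sham library 2 or FPI library 2 and highest without FPI library 3. With a term for the series of microglia library names 313 were called. Between sham cell types 9175 were called, against 4551 with 10 counts in every library, where fewer genes were tested. The labels do not say that a replicate number marks a shared batch or day. The correlation of deviations within a number ran from -0.08 to 0.08 in microglia and from -0.01 to 0.49 in astrocytes, where 4 of 5 numbers were above 0.1 and 3 sham libraries matched their own number best (2 in microglia). Since 1 pair showed no correlation the numbers were not taken to pair the libraries, and a shared source in part of the astrocyte libraries was not tested. It changed no call of a member. Depth limits Mog and Opalin in microglia, where a count of 0 allows up to 0.23 to 0.53 CPM.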
